A study of Mus musculus with 14 samples.

Results

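The distal ends of mouse chromosomes 8 and 10, which stand low in the B16F10 melanoma line, are described here cell by cell. All bins of the deposited coverage table that lie on either chromosome were taken as members, 466 of 4880 bins, with 232 on chromosome 8 and 234 on chromosome 10. Their median width was 537 kb on chromosome 8 and 540 kb on chromosome 10. Both chromosomes were chosen by the coverage of cultured B16F10 cells relative to white blood cells (WBC) of naive mice, in which their distal ends are low, so values of that contrast are given as a description and are not tested. A ceiling of 10 cuts the deposited values, and 17 bins of each chromosome that reached it in at least 1% of the cells were not used. This left 215 bins of chromosome 8 and 217 of chromosome 10.

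Sorted single cells were amplified by MALBAC, a whole-genome method in which finished copies close into loops and are kept out of later rounds, and were sequenced one by one. The tumor-injected samples came from female C57BL/6J mice aged 6-8 weeks that had received fluorescently labelled B16F10 cells, a melanoma line of the same strain. Their 9 samples (C1L, C1N, C1R, C2N, C2R, C3R, P1, P2 and P4) held 43 circulating tumor cells (CTC, in 5 samples), 450 cells labelled DP (in 9 samples) and 46 WBC (in 6 samples), from blood or lung. The 5 control samples were the B16F10 culture (22 cells), 21 WBC from naive C57BL/6J females of 6-8 weeks, and 18 CDP, 24 Duplike and 24 PltLike cells. The labels give genotype C57BL/6J, female sex, an age of 6-8 weeks and treatment naive for CDP, Duplike and PltLike, do not spell out these names or DP, and call the culture cells CTC as well. Each control class is 1 sample, B16F10 is 1 line, and the labels do not say how many mice make a sample, so every p measures only the spread between these samples. The read depth of the cells is unknown. Bin-to-bin noise lay between 0.136 and 0.270 (log2) over the 648 cells, no pair of cells had identical values, and 0 cell identifiers occurred in more than 1 sample.

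Mouse chromosomes carry their centromere at one end, so proximal and distal mean near to and far from it. Tumor genomes often lose or gain the whole piece between a breakpoint and the chromosome end, and such a breakpoint, once fixed in a line, marks its descendants. Distal chromosome 8 holds the adhesion gene Cdh1 and the tumor suppressors Cyld and Wwox. Distal chromosome 10 holds Mdm2, the ligase that restrains p53, the cell cycle kinase Cdk4 and the interferon gene Ifng.

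Each bin is given as log2 coverage relative to the median over the autosomes of the same cell, so that 0 is the cell's own typical level and no value counts copies. The level of the proximal or distal part is the median of its bins, and the step is the distal level minus the proximal level. The boundary was the single best change point of the culture relative to naive WBC. It fell at position 83297634 (83.3 Mb) of chromosome 8 and at 92854304 (92.9 Mb) of chromosome 10 in mm10. The distal parts were 46.1 Mb and 37.8 Mb long. They hold 472 and 315 protein-coding genes, against 571 and 686 in the proximal parts.

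The microRNAs near both boundaries and along the distal parts are shown to place small genes of known sequence inside and outside the low regions. Mature sequences are from RefSeq (GRCm38.p6, the assembly mm10 represents), and capitals mark the seed, bases 2 to 8, which pairs with target messages. The table holds 77 mature microRNAs of chromosome 8, 56 of them distal, and 81 of chromosome 10, 31 of them distal. On chromosome 8 the bin from 83834672 to 84352859, 0.9 Mb past the boundary, holds 2 clusters. One is miR-181c with miR-181d, which share 1 seed, and the other is miR-23a with miR-27a and miR-24.
miR-181c-5p: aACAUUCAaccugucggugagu
miR-181d-5p: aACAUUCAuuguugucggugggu
miR-23a-3p: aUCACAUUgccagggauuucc
miR-27a-3p: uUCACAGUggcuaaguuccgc
miR-24-3p: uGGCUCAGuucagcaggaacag
Further along the distal part, 11 Mb past the boundary, lies miR-138.
miR-138-5p: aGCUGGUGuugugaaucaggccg
On chromosome 10, miR-135a lies 0.78 Mb on the proximal side of the boundary, and miR-331, let-7i and miR-26a lie 1.1, 30.1 and 34.1 Mb past it.
miR-135a-5p: uAUGGCUUuuuauuccuauguga
miR-331-3p: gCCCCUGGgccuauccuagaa
let-7i-5p: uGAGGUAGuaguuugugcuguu
miR-26a-5p: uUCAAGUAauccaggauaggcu
miR-24, miR-138, miR-135a and miR-26a each have 2 copies in the table, and only the copies on these chromosomes are meant. Relative to WBC of the same samples, the bin of the miR-181c and miR-23a clusters stood in CTC at -0.36 (SE 0.041, limma adjusted p = 1.75e-06) and that of miR-138 at -0.19 (SE 0.054, adjusted p = 0.00690). The bin of miR-135a stood at -0.07 (SE 0.045, adjusted p = 0.261) and did not pass. Those of miR-331, let-7i and miR-26a stood at -0.40, -0.21 and -0.44 and passed. In this comparison 29.7% of all bins tested were lower. Between tumor-profile and host-profile DP cells, which are divided by their other autosomes, the bin of miR-135a was lower by limma as well, at -0.09 (SE 0.029, adjusted p = 0.00947), where 32.1% of all bins were lower.

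Promoters on either side of the boundaries are shown to place gene starts relative to the boundary bins. The breakpoint is resolved no finer than a bin, and on chromosome 10 Nedd1 lies nearer to the boundary than the proximal gene shown. Each is the 250 bases before the gene's start, from RefSeq (GRCm38.p6), with CG dinucleotides in capitals. The gene of the brown fat uncoupling protein Ucp1 spans the chromosome 8 boundary and its start lies in the last proximal bin (chr8:83290098-83290347, plus strand), and Elmod2 is the next gene inside the distal part (chr8:83332487-83332736, minus strand).
Ucp1: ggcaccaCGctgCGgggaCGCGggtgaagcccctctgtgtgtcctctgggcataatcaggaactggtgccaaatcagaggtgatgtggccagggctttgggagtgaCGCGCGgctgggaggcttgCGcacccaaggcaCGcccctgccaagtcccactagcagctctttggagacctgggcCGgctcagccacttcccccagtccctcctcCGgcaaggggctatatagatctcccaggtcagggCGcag
Elmod2: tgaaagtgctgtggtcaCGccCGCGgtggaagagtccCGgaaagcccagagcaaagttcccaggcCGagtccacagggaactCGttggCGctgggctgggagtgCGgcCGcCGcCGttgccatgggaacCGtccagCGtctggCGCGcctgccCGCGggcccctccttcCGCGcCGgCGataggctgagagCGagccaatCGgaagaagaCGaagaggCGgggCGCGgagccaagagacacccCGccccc
On chromosome 10 the nearest proximal gene of the lists is Apaf1, which builds the apoptosome (chr10:91082744-91082993, minus strand). Elk3, an ETS transcription factor, starts in the first distal bin (chr10:93311160-93311409, minus strand).
Apaf1: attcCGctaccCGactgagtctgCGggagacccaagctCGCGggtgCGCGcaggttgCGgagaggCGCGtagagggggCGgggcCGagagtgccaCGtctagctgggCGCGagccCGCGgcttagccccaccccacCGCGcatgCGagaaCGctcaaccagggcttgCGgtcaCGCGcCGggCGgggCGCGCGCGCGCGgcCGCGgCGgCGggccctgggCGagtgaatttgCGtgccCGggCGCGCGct
Elk3: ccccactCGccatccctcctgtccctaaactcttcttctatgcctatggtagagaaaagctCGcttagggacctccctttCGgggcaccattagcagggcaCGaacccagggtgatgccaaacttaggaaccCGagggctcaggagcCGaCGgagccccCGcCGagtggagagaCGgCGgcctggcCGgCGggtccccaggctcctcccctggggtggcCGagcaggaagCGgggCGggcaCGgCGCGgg
CG, which reads the same on both strands, occurs 12 times before Ucp1, 28 before Elmod2, 42 before Apaf1 and 19 before Elk3. Of all 32851 RefSeq promoters of this kind, 92.1% hold at least 1 CG, and the median is 6. As many as in these 4 are held by 33.5%, 7.61%, 0.865% and 19.7% of promoters. The bins of Ucp1, Elmod2, Apaf1 and Elk3 stood in CTC at -0.20 (limma adjusted p = 0.00252), -0.37 (adjusted p = 3.10e-06), -0.05 (adjusted p = 0.502) and -0.30 (adjusted p = 1.68e-05) relative to WBC.

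In the culture the fall was sharp on both chromosomes. On chromosome 8 the mean over the proximal bins was 0.00 relative to naive WBC, and the distal part ran at -0.37 up to 89.1 Mb, -0.26 up to 103.6 Mb, -0.38 up to 120.9 Mb, -0.16 up to 123.5 Mb and -0.31 to the end. On chromosome 10 the proximal part ran at 0.05, 0.12 and 0.03, and the distal part at -0.44 up to 96.0 Mb, -0.32 up to 104.7 Mb and -0.41 to the end. In this mean over 22 culture cells every distal segment was below 0, with shallower stretches inside, 2 on chromosome 8 and 1 on chromosome 10. The mean of chromosome 8 takes in unlike cells. From 91.7 to 102.6 Mb the 18 cells with the step, by a limit given below, had a median of -0.37. The 4 without it had 0.31 there, so the stretch of -0.26 is not a level shared by all cells. A single distal bin of chromosome 8 that stood above 0 is given with the bin tests. Median steps of culture cells were -0.38 on chromosome 8 and -0.44 on chromosome 10, against 0.02 and -0.01 in naive WBC. In the unit of the deposited signal, culture cells had a median of 3.75 proximal and 2.91 distal on chromosome 8, and of 3.81 and 2.81 on chromosome 10. WBC of tumor-injected mice had 1.81 and 1.83 on chromosome 8 and 1.81 and 1.81 on chromosome 10. The distal parts of the line were low against the rest of its own genome, while their deposited signal was above that of WBC. The scaling of that signal is not stated, so the word loss refers here to the level within a cell.

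**Figure D1:**
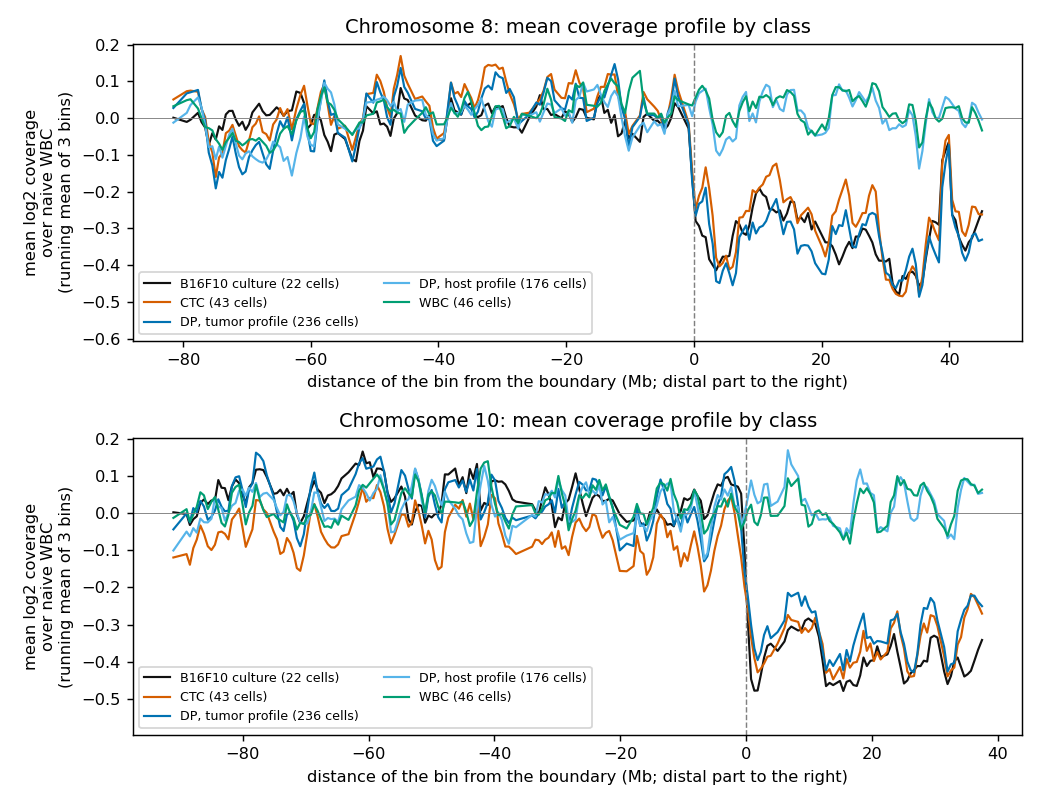
Mean log2 coverage of each bin minus that of naive WBC (running mean of 3 bins, vertical axis) against distance from the boundary in Mb (horizontal axis, distal to the right) for chromosomes 8 and 10; lines are means over the cells of a class. Culture, CTC and tumor-profile DP cells drop at the dashed boundary, while host-profile DP cells and WBC run near 0 on both sides, and the CTC line of proximal chromosome 10 lies below 0.

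The bins beside the boundaries show where the change begins. On chromosome 8 the last proximal bin (82758276 to 83297633, with Zfp330, Rnf150, Tbc1d9 and most of Ucp1) stood at -0.15 in culture, -0.21 in CTC and -0.20 in tumor-profile DP cells (DP cells that resemble the culture on all other autosomes), and at -0.0010 in WBC of tumor-injected mice, all relative to naive WBC. The bin before it stood at 0.01, 0.01 and -0.02 in the first 3, and the bin after it, with Elmod2, Clgn and Adgre5, at -0.34, -0.23 and -0.29. The last proximal bin lay between its neighbours in all 3, clearly so in culture, while in CTC it was already close to the first distal bin. On chromosome 10 the last proximal bin (92323902 to 92854303, with Nedd1 and part of Cfap54) stood at -0.04 in culture, -0.17 in CTC and -0.12 in tumor-profile DP cells. The first distal bin, with Elk3 and Cdk17, stood at -0.35, -0.27 and -0.26. At this bin width the data do not place a breakpoint within a gene.

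CTC of the same mice showed where the step lies in cells that did not set the boundary. The best change point of the CTC mean lay 0 or 1 bins from the culture boundary on chromosome 8 in all 5 samples, and 0, 0, 0, 1 and 2 bins from it on chromosome 10. In tumor-profile DP cells of 8 samples it lay 0 or 1 bins away on chromosome 8 and 0 to 2 bins away on chromosome 10. Single cells that carried the step, by a limit given next, were also searched. On chromosome 8 the change point lay within 2 bins of the boundary in 30 of 35 such CTC (85.7%) and in 196 of 250 such DP cells (78.4%), and within 10 bins in 35 and 249. On chromosome 10 it lay within 2 bins in 29 of 31 CTC (93.5%) and 206 of 226 DP cells (91.2%), and within 10 bins in 31 and 217. The step of these cells was measured at the same boundary, so their choice favours change points near it, and the shares are a description.

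A cell was said to carry the step when it lay below the midpoint between the medians of culture and naive WBC, which was -0.18 on chromosome 8 and -0.22 on chromosome 10. Within 0.05 of this limit lay 23 of the 648 cells on chromosome 8 and 43 on chromosome 10. DP cells were divided by their profile on all autosomes except 8 and 10, on a score that is 0 for the mean naive WBC and 1 for the mean culture cell. A score above 0.75 was called tumor profile (236 cells), below 0.25 host profile (176 cells) and the rest intermediate profile (38 cells). These names describe the score and are no cell types.

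The step of each chromosome was carried by most CTC. The step counts a distal part that is lower than the proximal part of the same chromosome, so a chromosome low along its whole length has none. The chromosome 8 step was present in 35 of 43 CTC (81.4%, exact Clopper-Pearson 95% interval 66.6% to 91.6%), the chromosome 10 step in 31 (72.1%, 56.3% to 84.7%) and both in 24, and 1 CTC had neither. By the level of the distal part alone, low by the limits of -0.19 and -0.23, chromosome 8 was low in 34 of 43 CTC, chromosome 10 in 43 and both in 34. In WBC of tumor-injected mice each step was carried by 0 of 46 cells, and a count of 0 allows a share of up to 6.52%, that of 3 cells. Naive WBC, which with the culture set the limit, had 0 of 21. Of culture cells 18 of 22 carried the chromosome 8 step and all 22 the chromosome 10 step. Of the 450 DP cells 250 (55.6%) carried the chromosome 8 step, 226 (50.2%) the chromosome 10 step and 209 both. These intervals and limits hold counting error alone, and cells that share a sample are not independent.

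Within DP cells the steps went with the profile of the other chromosomes. Tumor-profile DP cells carried the chromosome 8 step in 219 of 236 cells (92.8%, 88.7% to 95.7%) and the chromosome 10 step in 209 (88.6%, 83.8% to 92.3%), and 2 of them had neither. Host-profile DP cells carried each step in 1 of 176 cells (0.568%, 0.0144% to 3.12%), and in no case the same cell. Intermediate-profile cells carried the chromosome 8 step in 30 of 38 cells (78.9%, 62.7% to 90.4%) and the chromosome 10 step in 16 (42.1%, 26.3% to 59.2%). Their score places the other autosomes between naive WBC and culture, so shallow steps would not be surprising, and the limit was the same for them. These 2 shares count steps beyond the limit and not the cells with a loss.

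**Figure D2:**
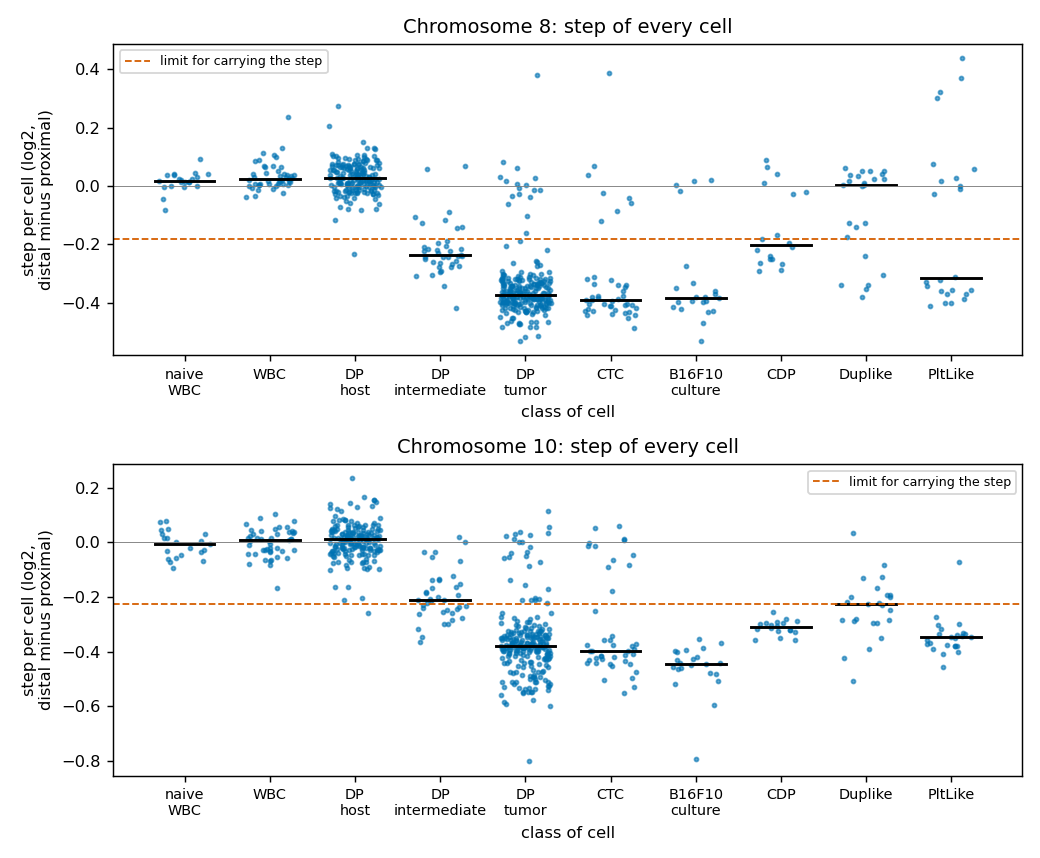
Step of every cell on chromosome 8 and on chromosome 10 (log2, distal minus proximal, vertical axis) by class (horizontal axis); points are cells, bars are medians and the dashed line is the limit for carrying the step. All 67 WBC lie above the limit, and in CTC and tumor-profile DP cells a minority near 0 stands apart from the main group below the limit.

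Averaged over cells with and without it, the step was shallower in intermediate-profile DP cells. Its mean over 8 samples was -0.23 ± 0.054 (SD over samples) on chromosome 8 and -0.20 ± 0.052 on chromosome 10, against -0.34 ± 0.038 and -0.33 ± 0.094 in tumor-profile DP cells. Most intermediate cells had a higher deposited coverage, and the 24 with an autosomal median near 5.64 had steps of -0.23 and -0.22, the 9 near 7.75 steps of -0.19 and -0.14. The chromosome 10 mean of this class lies above the limit of -0.22. By deposited signal, intermediate cells had medians of 5.75 proximal and 4.95 distal on chromosome 8, and of 5.70 and 4.81 on chromosome 10.

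The class comparison set CTC against the WBC of their own samples, 5 in number. The mean step of CTC on chromosome 8 was -0.23 in C1L, -0.32 in C1N, -0.29 in C1R, -0.34 in C2R and -0.38 in C3R, and that of WBC was 0.05, 0.06, 0.03, 0.02 and 0.04. On chromosome 10 CTC had -0.46, -0.21, -0.22, -0.43 and -0.30, and WBC had 0.02, 0.00, -0.04, 0.01 and 0.04. The classes did not overlap on either chromosome, and C1N and C1R were the samples nearest to WBC on chromosome 10. The difference was -0.35 ± 0.057 on chromosome 8 and -0.33 ± 0.14 on chromosome 10 (SD, n = 5 samples), below 0 in all 5 (exact sign-flip permutation test, two-sided, p = 0.0625 each, the least that 5 pairs can give; 0.125 after Benjamini-Hochberg adjustment over 20 such tests). Carrier shares differed by 81.8% ± 12.7 on chromosome 8 and by 73.3% ± 29.4 on chromosome 10 (exact p = 0.0625 each).

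DP cells as a whole were compared with the same WBC. Their step differed by -0.24 ± 0.094 on chromosome 8 and by -0.23 ± 0.16 on chromosome 10, negative in 5 of 5 samples (exact sign-flip permutation test, p = 0.0625 each). Carrier shares differed by 57.6% ± 24.7 and 51.1% ± 31.9. Without C1N and C1R, a choice made after the values were seen, the chromosome 10 step differed by -0.35 (3 samples). CTC and all DP cells differed by -0.11 ± 0.10 on chromosome 8 and by -0.098 ± 0.065 on chromosome 10, lower in CTC in 4 of 5 samples on each (exact p = 0.125, adjusted p = 0.139). This comparison shares its samples with the other 2. In blood cells alone the chromosome 10 difference between CTC and DP cells was 0.0011.

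Tumor-profile and host-profile DP cells of the same 8 samples were then compared, with the profile taken from other chromosomes. Tumor-profile cells had chromosome 8 steps from -0.39 (C1N and C2R) to -0.27 (P4), and host-profile cells from 0.01 (C3R) to 0.10 (P2). On chromosome 10 the tumor-profile cells ranged from -0.48 in C1L to -0.20 in C1N, and the host-profile cells from -0.03 to 0.05. The groups did not overlap on either chromosome. The difference was -0.38 ± 0.041 on chromosome 8 and -0.34 ± 0.092 on chromosome 10 (SD, n = 8 samples), negative in 8 of 8 (exact sign-flip permutation test, p = 0.00781, the smallest that 8 pairs allow; adjusted p = 0.0781). CTC differed from tumor-profile DP cells of the same sample by 0.05 ± 0.052 on chromosome 8 (range -0.03 to 0.11) and by 0.03 ± 0.024 on chromosome 10 (range -0.01 to 0.06), shallower in CTC in 4 of 5 samples on each (exact p = 0.125). These means take in cells with and without the step, so they mix the share of carriers with the depth of the loss. The mean step of CTC was not shown to differ from that of tumor-profile DP cells, and depth among carriers alone was not tested.

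**Figure D3:**
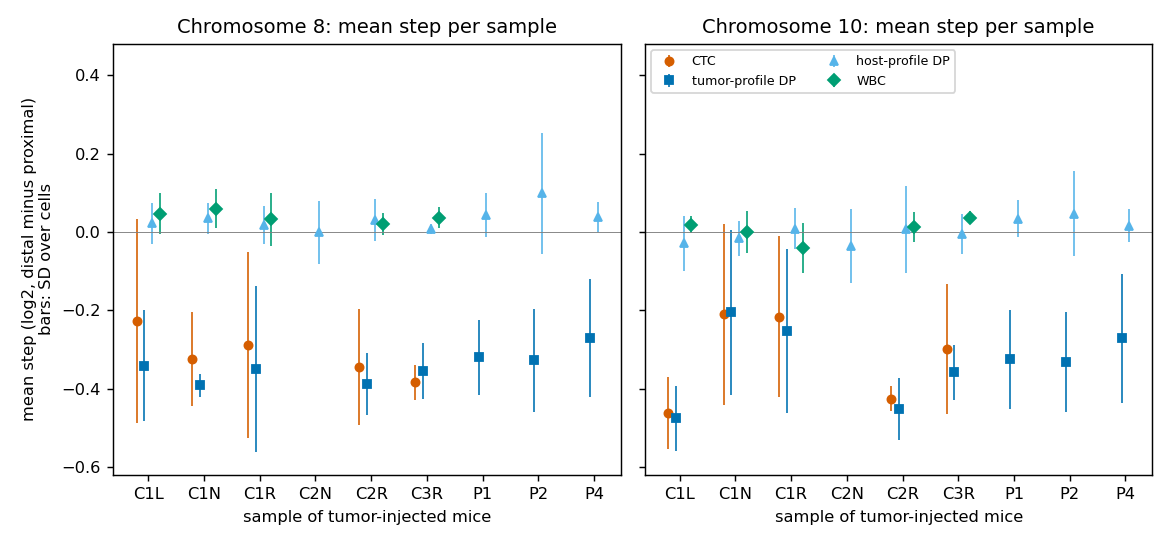
Mean step (log2, vertical axis) on chromosomes 8 and 10 in each sample of tumor-injected mice (horizontal axis) for CTC, tumor-profile DP, host-profile DP and WBC; bars are the SD over cells, and classes with fewer than 3 cells in a sample are left out. CTC and tumor-profile DP lie below 0 in every sample shown, and on chromosome 10 C1N and C1R lie nearest to 0.

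The share of DP cells that carry the losses varied between samples, and between tissues it differed in a direction that was not the same in every sample. In blood 184 of 273 DP cells (67.4%, 61.5% to 72.9%) carried the chromosome 8 step and in lung 66 of 177 (37.3%, 30.1% to 44.9%). For chromosome 10 the shares were 61.2% and 33.3%. Within samples the chromosome 8 step was carried by 26 of 33 blood and 1 of 7 lung cells in C1L, by 11 of 22 and 0 of 14 in C1N, by 19 of 23 and 0 of 34 in C1R and by 38 of 39 and 6 of 25 in C2R. Sample P1 ran the other way, with 10 of 46 in blood and 29 of 47 in lung. Of the samples with 1 tissue, C3R and P4 blood had 71 of 81 and 9 of 29 carriers, and P2 and C2N lung had 29 of 35 and 1 of 15. Over the 5 samples with both tissues the carrier share differed between lung and blood by -46.1% ± 49.6 on chromosome 8 (exact p = 0.125) and by -38.4% ± 47.7 on chromosome 10 (exact p = 0.1875), lower in lung in 4 of 5. The step itself differed by 0.20 ± 0.21 (exact p = 0.125) and by 0.18 ± 0.22 (exact p = 0.1875).

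Pooled over samples, tumor-profile DP cells of the 2 tissues had shares that lay close together. The chromosome 8 step was carried by 163 of 174 such cells in blood (93.7%) and by 56 of 62 in lung (90.3%), and the chromosome 10 step by 155 of 174 (89.1%) and 54 of 62 (87.1%). The lung cells came mainly from P2 (29) and P1 (27), and the blood cells mainly from C3R (69), C2R (34) and C1L (28). Tissue and sample cannot be told apart in these pooled shares. Most tumor-profile cells carried the steps in either tissue. Whether the share of such cells in a tissue has a part in the tissue difference was not tested. In CTC the chromosome 8 step was carried by 24 of 28 cells in blood and 11 of 15 in lung, and the chromosome 10 step by 17 of 28 and 14 of 15.

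CTC without the chromosome 10 step were low over the whole chromosome. When proximal and distal levels were each set against a limit (-0.23 on chromosome 10), a division made after the values were seen, all 12 CTC without the step were low in both parts, and all 43 CTC were low in the distal part. Among CTC and tumor-profile DP cells together, 30 of 279 (10.8%, 7.37% to 15.0%) were low throughout. Their mean level was -0.34 ± 0.05 proximal and -0.37 ± 0.11 distal (SD over cells). The 237 cells that were low in the distal part alone had 0.02 and -0.38. The remaining cells, all tumor-profile DP, were low in neither part, 8 with and 4 without the chromosome 8 step. In deposited signal the cells low throughout had medians of 2.97 and 2.91, and those low in the distal part alone 3.78 and 2.87. The split itself sets a low distal level in both of these groups and a proximal difference between them, so their levels are a description.

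This state gathered in 2 samples. It was found in 6 of 12 cells in C1N and in 16 of 33 in C1R, and in 8 of 234 cells (3.42%, 1.49% to 6.63%) in the other 7 samples, namely 2 each in C3R, P1, P2 and P4 and 0 in C1L and C2R. C2N had no CTC or tumor-profile DP cell. In C1N it was seen in 4 of 6 CTC and 2 of 6 tumor-profile DP cells, and in C1R in 7 of 15 CTC and 9 of 18 tumor-profile DP cells. Both classes of both samples therefore held it. By tissue it was found in 11 of 28 CTC of blood and in 1 of 15 of lung, but 16 of those in blood came from C1N and C1R and 10 of those in lung from C2R, which had 0 in either tissue. Within C1R it was 6 of 11 in blood and 1 of 4 in lung. It was seen in 0 of 22 culture cells (exact 95% interval up to 15.4%), in 0 of 18 CDP and 0 of 24 PltLike cells, and in 1 of 24 Duplike cells. Cells low throughout carried the chromosome 8 step in 11 of 12 CTC and in 16 of 18 tumor-profile DP cells.

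The other 19 chromosomes, X included, were compared between cells low throughout and cells low in the distal part alone. In C1R (16 against 17 cells) all 19 differed by less than 0.1 in mean log2 level. In C1N (6 against 5 cells) 3 of 19 did, and chromosomes 12, 16 and 13 stood lower, at -0.34, -0.28 and -0.24. Chromosomes 7 and 3 were lower there too, at -0.21 and -0.17. All others beyond 0.1 in C1N were higher, by up to 0.17 on chromosome 4. In the other 7 samples 14 of 19 differed by less than 0.1, with chromosome 16 at -0.29 and chromosome 19 at 0.15.

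**Figure D4:**
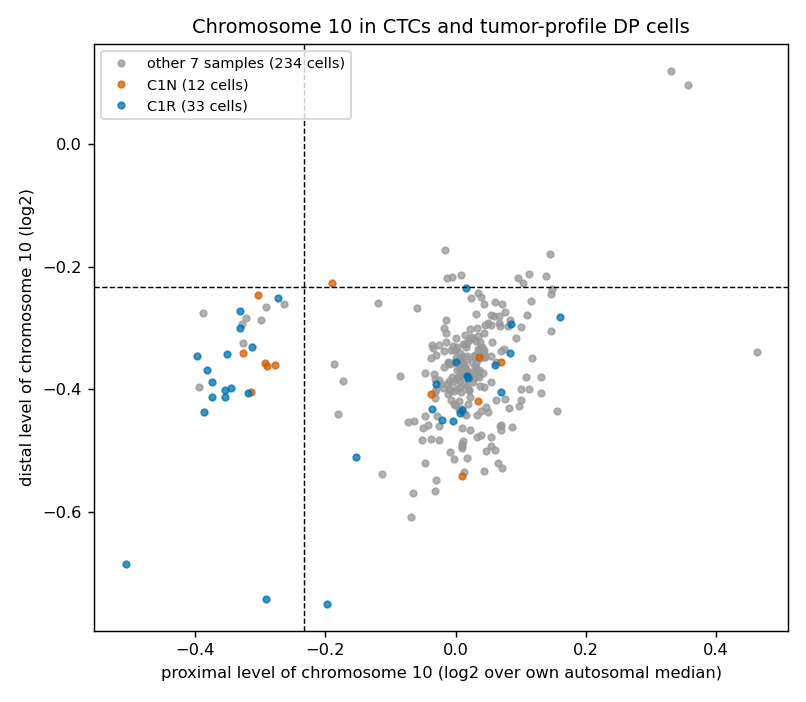
Distal level of chromosome 10 (vertical axis) against its proximal level (horizontal axis), both log2 over the cell's own autosomal median, for the 279 CTC and tumor-profile DP cells; dashed lines are the limit of -0.23. A main group has a proximal level near 0, and a second group at about -0.34, mostly from C1N and C1R, has the same distal level. A few tumor-profile DP cells lie above the limit in both parts.

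On chromosome 8, cells without the step had another pattern within the distal part. It was read from control cells without the step (4 culture, 8 CDP, 18 Duplike and 11 PltLike cells), leaving out 2 cells whose proximal part was off the autosomal median. The other 39 had a raised window from 91723378 to 102571798 (10.8 Mb) at 0.26 and a low window from 112564807 to 119860691 (7.3 Mb) at -0.33, with 0.02 and 0.01 before and between them and -0.01 beyond. The raised window holds 66 protein-coding genes, among them the chemokine genes Ccl22, Ccl17 and Cx3cl1, the metallothioneins Mt1 and Mt2 and the matrix proteases Mmp2 and Mmp15. The low window holds 40, with the oxidoreductase gene Wwox and the cadherin gene Cdh13. The windows were chosen after the values were seen, so what follows is a description.

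All 8 CTC without the step showed the pattern, by a difference between raised and low window above 0.34. Their medians were 0.32 in the raised window, -0.50 in the low window and 0.03 in the rest of the distal part. Tumor-profile DP cells without the step showed it in 14 of 17 cells (0.22, -0.45 and -0.02), and intermediate-profile DP cells in 2 of 8. These 24 of 33 cells came from 8 samples of tumor-injected mice, every one that held a cell without the step in these classes. The pattern was present in 4 of 4 culture cells (0.31 and -0.44), 11 of 11 PltLike (0.38 and -0.46), 14 of 18 Duplike (0.24 and -0.32) and 5 of 8 CDP cells (0.23 and -0.27). The limit of 0.34 is the midpoint between the median differences of control cells without and with the step. Counts of control cells, with or without the step, are therefore partly set by it. The pattern was seen in 0 of 46 WBC, 0 of 21 naive WBC and 1 of 175 host-profile DP cells. Cells that carried the step passed the limit in 3 of 35 CTC, 13 of 219 tumor-profile DP and 0 of 18 culture cells. The low window stood at about the same level with the step (-0.42 in CTC) as without it (-0.50).

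Other chromosomes differed little between CTC and tumor-profile DP cells without and with the chromosome 8 step, by at most 0.05 in mean log2 level, which was on chromosome 11 (25 against 254 cells). In PltLike cells all 19 differed by less than 0.1. In the culture, with 4 against 18 cells, chromosomes 3, 15 and 12 differed by -0.32, 0.29 and 0.27.

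**Figure D5:**
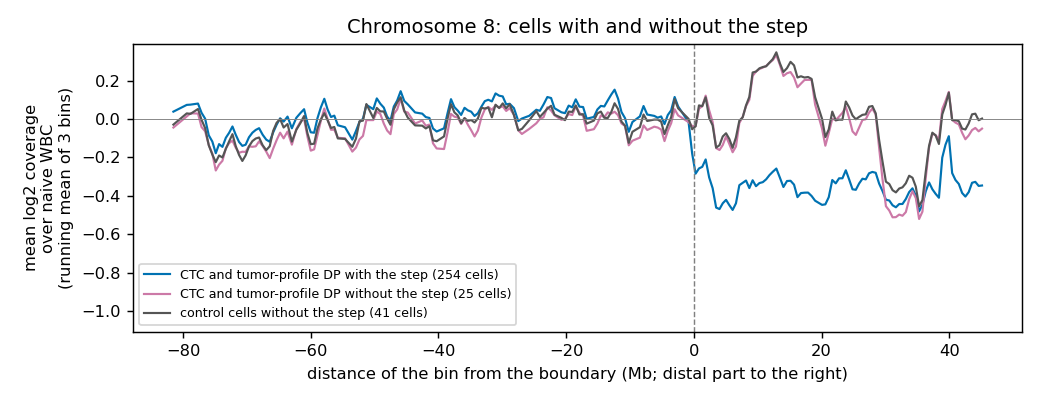
Mean log2 coverage of each chromosome 8 bin minus that of naive WBC (running mean of 3 bins, vertical axis) against distance from the boundary in Mb (horizontal axis) for CTC and tumor-profile DP cells with the step (254 cells) and without it (25 cells) and for control cells without it (41 cells). Cells without the step run near 0 past the boundary, rise in the window that begins 8.4 Mb past it and fall in the window that begins 29.3 Mb past it, in tumor-injected and control samples.

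The control classes labelled naive carried the losses of the line. The chromosome 10 step was present in all 18 CDP cells, 23 of 24 PltLike cells and 12 of 24 Duplike cells. The chromosome 8 step was present in 10 of 18, 13 of 24 and 6 of 24, and every CDP and PltLike cell with it also carried that of chromosome 10. Mean steps were -0.15 ± 0.13 and -0.31 ± 0.027 in CDP (SD over cells), -0.13 ± 0.28 and -0.35 ± 0.070 in PltLike and -0.09 ± 0.16 and -0.24 ± 0.11 in Duplike cells. The Duplike mean on chromosome 10 lies close to the limit of -0.22. The count of 12 of 24 therefore depends on where the limit falls and does not show that the rest lack the loss. In PltLike and Duplike cells the best single change point of chromosome 8 lay at 112.0 Mb, 53 bins past the boundary, next to the low window of cells without the step, and in CDP it lay at the boundary. The genotype and treatment labels of these 3 classes therefore do not describe these chromosomes of all their cells.

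Single bins were tested with limma on the class means of each sample, fitted on 4376 bins of all autosomes and X, with the sample as a block. Values are log2(deposited value + 0.1) relative to the autosomal median, which understates the change of low bins. In CTC minus WBC, 84 of 85 distal bins of chromosome 8 were lower (median -0.31) and 64 of 64 of chromosome 10 (median -0.36), where 29.7% of all bins tested were lower and 20.1% higher and the median over all bins was -0.01. In either direction 192 bins of both chromosomes passed, against 49.8% of all bins. Of the proximal bins of chromosome 8, 3 of 130 were lower and 13 higher (median 0.03), and on chromosome 10 26 of 153 were lower and 1 higher (median -0.06). In DP minus WBC 82 of 85 and 59 of 64 distal bins were lower (medians -0.23 and -0.21; 24.3% of all bins were lower and 14.8% higher). In either direction 146 bins of both chromosomes passed here (39.1% of all bins did), and 88 passed without C1L and 81 without C2R. Between tumor-profile and host-profile DP cells 84 of 85 and 64 of 64 distal bins were lower (median -0.34 each). In this comparison 32.1% of all bins were lower and 26.7% higher, and 234 bins of both chromosomes passed in either direction, against 58.8% of all bins. Of the proximal bins, 7 of 130 were lower and 39 higher on chromosome 8, and 22 of 153 were lower and 17 higher on chromosome 10.

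CTC minus DP gave fewer calls. There 12 of 85 distal bins of chromosome 8 (median -0.08) and 37 of 64 of chromosome 10 (median -0.16) were lower, with 14.5% of all bins lower and 9.46% higher. The share on chromosome 8 was thus near that of all bins. In either direction 59 bins of both chromosomes passed (23.9% of all bins did), and 23 did without the sample as a block. By limma 0 passed without C1N, without C1R or without C2R, with 81, 67 and 118 at an unadjusted p under 0.05, so this count rests on each of these samples.

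A single distal bin of chromosome 8 went against its neighbours. The bin from 122445472 to 122956673, 39.1 Mb past the boundary, holds 12 protein-coding genes, among them the mechanosensitive channel gene Piezo1, the replication licensing gene Cdt1 and the cadherin gene Cdh15. It stood higher in CTC than in WBC by 0.26 (SE 0.039, limma adjusted p = 2.97e-05), higher in tumor-profile than in host-profile DP cells by 0.16 (SE 0.027, adjusted p = 1.37e-05) and at 0.29 in culture relative to naive WBC. DP cells as a whole differed from WBC by 0.11 there (adjusted p = 0.0536). Among proximal bins, the most negative in CTC were one of chromosome 8 from 73386454 to 73964920 (-0.34, adjusted p = 0.0138) and one of chromosome 10 from 50944203 to 51526188 (-0.36, adjusted p = 0.00458), which stood at -0.19 and -0.12 in culture. These 3 bins were picked after their values were seen.

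The listed genes are 101 genes of cell cycle control, growth signalling, immunity, pigment and adhesion on these chromosomes, of which 95 had a bin off the ceiling. Genes of 1 bin share its value. On the distal side 45 of 48 genes were measured, in 31 bins, and all 31 bins were lower in CTC than in WBC (limma, median -0.36), in DP cells than in WBC, and in tumor-profile than in host-profile DP cells, while 14 were lower in CTC than in DP cells. On the proximal side 50 of 53 genes were measured, in 42 bins, of which 9 were lower, all on chromosome 10, and 3 higher, all on chromosome 8. Since 84 of 85 and 64 of 64 of all distal bins were lower in CTC, the counts of the distal lists that follow are those of any distal bin and are not particular to these genes. The distal genes at the ceiling were Dcn, Lum and Cdh11.

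Of the genes of the cell cycle, p53 and tumor suppression, all 13 distal bins were lower in CTC (median -0.38). Mdm2 shares its bin with Il22, the gene of an epithelial cytokine. That bin stood in CTC at -0.45 in C1L, -0.37 in C1N, -0.51 in C1R, -0.39 in C2R and -0.42 in C3R relative to naive WBC, and in WBC at -0.06, 0.00, 0.05, 0.03 and 0.01. The classes did not overlap, and the difference was -0.43 (adjusted p = 3.54e-07). Cdk4 stood at -0.30, -0.34, -0.19, -0.40 and -0.15 in CTC and at 0.08, 0.10, 0.17, 0.11 and 0.34 in WBC, a difference of -0.44 (adjusted p = 2.72e-07), part of which is the raised level of WBC there. Wwox, the tumor suppressor of the chromosome 8 low window, had the largest difference of the lists on that chromosome, -0.48 (SE 0.041, adjusted p = 7.34e-08), with -0.36, -0.42, -0.51, -0.59 and -0.33 in CTC and 0.02, 0.10, -0.03, -0.05 and 0.15 in WBC. Brd7, a chromatin reader, stood at -0.38. Ctcf, the insulator protein, stood at -0.32 and the retinoblastoma relative Rbl2 at -0.29. Cdh1, the epithelial cadherin, stood at -0.22.

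Immune genes had 7 of 7 distal bins lower in CTC (median -0.41). Ifng, the interferon gamma gene, stood at -0.49 (adjusted p = 6.07e-08), the largest difference of the lists on chromosome 10. The bin of Nod2, a sensor of bacterial wall fragments, and of the deubiquitinase Cyld stood in CTC at -0.42, -0.24, -0.44, -0.42 and -0.53 and in WBC at -0.01, 0.07, 0.02, 0.06 and 0.07. The difference was -0.45 (SE 0.046, adjusted p = 4.79e-07). Lyz2, the lysozyme gene of myeloid cells, stood at -0.41 and the interferon factor Irf8 at -0.34. Cx3cl1, in the raised window of cells without the step, stood at -0.21 in CTC relative to WBC and at -0.38 in tumor-profile relative to host-profile DP cells.

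Growth signalling genes had 12 of 12 distal bins lower in CTC (median -0.36). Socs2, a brake on growth hormone signalling and the listed gene next to the chromosome 10 boundary (2.5 Mb past it), stood in CTC at -0.50, -0.44, -0.44, -0.46 and -0.36 and in WBC at 0.05, 0.06, -0.02, -0.03 and 0.02. The difference was -0.46 (SE 0.042, adjusted p = 1.66e-07). Wif1, an inhibitor of Wnt ligands, stood at -0.43 (adjusted p = 3.79e-07). Prkaca, the catalytic subunit of protein kinase A and the listed gene next to the chromosome 8 boundary (0.69 Mb past it), stood in CTC at -0.22, -0.39, -0.30, -0.29 and -0.27 and in WBC at 0.16, 0.07, 0.06, 0.04 and 0.02. Its difference was -0.36 (SE 0.041, adjusted p = 1.75e-06). It shares its bin with the microRNA clusters printed above.

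Pigment and adhesion genes of the distal parts were lower as well. All 3 distal bins of the pigment list were lower in CTC (median -0.36), with Kitl, the ligand that melanocytes need for survival, at -0.41. Pmel, which builds the fibres of pigment granules, stood at -0.36 in the bin it shares with the receptor gene Erbb3 and with Cdk2. Mc1r, the melanocortin receptor, stood at -0.18 (adjusted p = 0.00137). The 1 proximal bin of the pigment list, on chromosome 10, was lower too, at -0.12. Of the adhesion list 5 of 8 distal genes were measured, and all 5 bins were lower (median -0.27), with the endothelial cadherin Cdh5 at -0.42 and the matrix protease Mmp2 at -0.27.

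Genes on the proximal side of chromosome 8 did not share the loss. Wrn, a helicase of DNA repair, was higher in CTC by 0.14 (adjusted p = 0.00792), the growth factor gene Vegfc by 0.17 (adjusted p = 0.00389) and the tumor suppressor gene Dlc1 by 0.16 (adjusted p = 0.0137). Irs2, which relays insulin signals, had a difference of 0.08 (adjusted p = 0.137) and did not pass. Il15, the cytokine gene next to the boundary, had 0.05 (adjusted p = 0.431).

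On the proximal side of chromosome 10 the listed genes were low in some samples. The kinase gene Lats1 stood in CTC at -0.14 relative to WBC (adjusted p = 0.0136), the surface protein gene Cd24a at -0.16 (adjusted p = 0.00427), the gap junction gene Gja1 at -0.17 (adjusted p = 0.00345), the DNA demethylase gene Tet1 at -0.18 (adjusted p = 0.00554) and the leukocyte integrin gene Itgb2 at -0.15 (adjusted p = 0.00657). Apaf1 had -0.05 (adjusted p = 0.502). Relative to naive WBC, Tet1 stood in CTC at 0.03 in C1L, -0.22 in C1N, -0.19 in C1R, -0.10 in C2R and -0.08 in C3R. Apaf1 stood at 0.28, -0.22, -0.05, 0.11 and 0.00. C1N and C1R were the lowest for Tet1 and for Apaf1, and they are the samples in which chromosome 10 was low throughout in many cells. In C1L and C2R 0 CTC were low throughout. In culture, where 0 of 22 cells were low throughout, Tet1 stood at -0.12 and Apaf1 at 0.01 relative to naive WBC.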

How the data were processed

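Coverage profiles of 648 single cells were used, with class, tissue and sample taken from the deposited cell table. The values are a coverage signal per bin that the authors deposited under a name that calls it normalized and scaled. The scaling is not stated in the descriptions, and per the submitters' processing notes the series used BWA, Trim Galore, SAMtools, Picard, featureCounts and HISAT2 with mm10. Read depth is unknown, so bin-to-bin noise stands in for precision, and the number of cells and samples limits each value. There were 0 columns of per-sample values left unused.

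Bins that reached the ceiling of 10 in 1% of cells or more were not used, which kept 4120 autosomal and 256 X bins. For bin values, profiles, scores and change points, values plus a pseudocount of 0.1 were put on the log2 scale. Each cell's median over the kept autosomal bins was then subtracted. Levels and steps used no pseudocount. For them the deposited values were divided by the cell's median over all autosomal bins, and log2 was taken of the median over a part. Window medians of chromosome 8 cells were taken likewise, after division by the mean of naive WBC. Cells of a class were averaged within a sample (at least 3 cells of both classes), and samples were the pairs, since classes of 1 sample carry the same sample label. Exact sign-flip permutation tests, two-sided, were used for differences, and single bins by limma with Benjamini-Hochberg adjustment at 5%. The bin test and the change-point search were tested on simulated data. Change points needed 10 bins on each side, and finer segments 5 bins and a penalty.

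The members, the gene lists and the tests were chosen with earlier results of these data known. Named genes were the 5 genes or gene-sharing bins per part and chromosome with the largest CTC minus WBC difference and the listed genes next to each boundary; others named are list members, genes of the bins at the boundaries, or genes of bins and windows chosen after their values were seen. A bin that this rule would name is not reported here. Each gene has the value of the bin that holds its midpoint. Alternatives covered the pseudocount (0.5), the ceiling filter, the boundary, carrier rules, tissue, noise, cell minimum, centring, means in place of medians, the sample block and each sample left out. Tests ran in R 4.3.3 with limma 3.58.1 and in Python 3.11.15 with scipy 1.17.1, pandas 2.3.3 and numpy 2.4.6, and plots in matplotlib 3.10.9.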

Additional observations from a re-analysis of the deposited data

Results flagged for a closer look

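Of 40 sets of sample means tested for a sample apart from the rest, 5 had one, all in host-profile DP cells, and chance gives this in about 1 in 20 sets. Host-profile DP cells of P2 (3 cells) had the lowest proximal level of chromosome 8, -0.125 against -0.034 in the next of 9 samples. The same cells had the highest chromosome 8 step, 0.0988 against 0.0428. C2N had the highest share of host-profile DP cells with the chromosome 8 step, 6.67% (1 cell) against 0% in the other 8 samples. C2R had the highest share with the chromosome 10 step, 5.26% (1 cell) against 0%. With all other samples at 0, 1 cell is enough to set a sample apart, so these 2 shares should not be read against the chance rate. C2N had the highest proximal level of chromosome 10, 0.0231 against 0.0023.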

How the results depend on the processing

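Of 319 values recomputed under alternatives for 26 results, 305 kept their direction and their side of the threshold or stayed within 1.5 times, and 124 of 129 did when 1 sample was left out. Paired results that rest on 5 samples cannot reach an exact sign-flip p under 0.0625. Unless a setting added a sample, only a change of sign could move them. For these results the counts are therefore no test of robustness. With at least 1 cell of both classes, which added C2N, DP minus WBC gave -0.20 (chromosome 8 step), -0.20 (chromosome 10 step) and 49.1% (chromosome 8 share), each at exact p = 0.0313, now under 0.05. This is the least that 6 pairs can give. C2N held 15 DP cells and 2 WBC, and its chromosome 8 share was 1 of 15 against 0 of 2, so the share passed through 1 cell. In blood cells the chromosome 10 step of CTC minus DP turned to 0.0011 (exact p = 1). Tumor-profile minus host-profile DP cells gave -0.37 and -0.32 in blood (exact p = 0.0625) and -0.39 and -0.38 in lung (exact p = 0.25), where 5 and 3 pairs allow no smaller p. For pairing, the fit without the sample as a block called 23 bins of these chromosomes in place of 59 for CTC minus DP, 186 in place of 192 for CTC minus WBC, 152 in place of 146 for DP minus WBC and 212 in place of 234 for tumor-profile minus host-profile DP cells. With 1 sample left out the limma counts ranged from 0 to 62 for CTC minus DP (67 to 118 at an unadjusted p under 0.05 where it was 0), and from 81 to 150 for DP minus WBC. Apart from the choices named here, the cause of these moves was not tested. By distal level, an alternative added after the values were seen, the carrier share of CTC minus WBC was 100% on chromosome 10 and 77.8% on chromosome 8. Without C1N and C1R, also added later, the chromosome 10 step was -0.42 in CTC minus WBC and -0.35 in DP minus WBC (3 samples). Breakpoints are resolved no finer than 1 bin, and the unknown depth leaves single cells near a limit uncertain.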
